A study of Rattus norvegicus with 19 samples.

Results

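The 19 hippocampal RNA-seq libraries of the series were read as a factorial of 2 altered copies of rat chromosome 1, a deleted one and a duplicated one. All 19 of 19 libraries entered, by the genotype in their description: 6 wt libraries carried neither altered chromosome, 4 Del libraries the deleted one, 5 Dup libraries the duplicated one, and 4 DelDup libraries both. The interval between Sult1a1 and Spn, homologous to human 16p11.2, was therefore present in 2 copies in wt, 1 in Del, 3 in Dup and 2 in DelDup, where both copies lie on the same chromosome. Each altered chromosome had an effect estimated over both backgrounds, and the DelDup libraries gave the departure from the sum of the 2 effects.

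The RNA came from adult male Sprague Dawley rats. Each line was made by CRISPR/Cas9 in zygotes, and the study crossed Del/+ with Dup/+ animals, so that littermates of all 4 genotypes could be compared on an outbred background. An exact age at sampling and the number of founders behind these libraries were not given in the sources used here. The study's methods describe separate animals for each genotype, and the p-values measure the spread between these samples.

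Copy number changes of 16p11.2 are among the recurrent genomic causes of neurodevelopmental disorder in people, with deletion and duplication acting in part in opposite directions on body weight and head size. The interval holds genes of several kinds. Mapk3 encodes the kinase ERK1, Taok2 a kinase of dendrite growth, Kctd13 the adaptor that brings RhoA to the Cul3 ubiquitin ligase, Prrt2 and Doc2a regulators of synaptic vesicle release, and Aldoa a glycolytic enzyme. When each copy is transcribed at the same rate, RNA follows copy number in proportion, and the effects of 2 alleles add in counts but not in logarithms.

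The same pair of Cas9 cuts created both altered chromosomes, and the sequences aimed at are shown because they define the alleles compared here (5′ to 3′, letters of the protospacer-adjacent motif not marked in the source).
cr595: gcaatctcacgtgtctgatgg
cr598: gtgacatcgtgaccctgctgg
Each altered chromosome was told from a normal one by a junction that a normal chromosome lacks, read by a primer pair of its own.
Del forward: gggctggcagacttgaa
Del reverse: gtgccacgatcagcagt
Dup forward: agctgtgatcctctggtt
Dup reverse: cgctttgatgcccactat

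Libraries held 16191200 to 38760600 reads assigned to genes. One library, wt replicate 5, had the genotype Dup/+ in a second label field, while its description said wt. Its interval level was 97.3% of the wt mean, where the other wt libraries lay between 96.4% and 101.5% and the Dup libraries between 140.1% and 148.8%, so it was kept as wt. Alignments to more than 1 place made up 40.1% to 50.5% of the total in the 11 libraries without the deleted chromosome and 41.6% to 76.3% in the 8 libraries with it. This share was above 55% in 7 of those 8, the exception being Del replicate 4, and in 0 of the other 11. The deleted chromosome went with 17.8 percentage points more of it (SE 4.29) and the duplicated one with 2.05 (SE 4.29). Except through Del replicate 4, the deleted chromosome and a high share cannot be told apart.

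The interval fell with the deleted chromosome and rose with the duplicated one, the rise being smaller than 1 extra copy of 2 would give. Of 33 interval genes listed, 32 were in the files and 28 had enough reads to be tested. The level of the interval in a library was taken as the median over these 28 genes of the CPM (reads of a gene scaled to a common library size with TMM factors), each in percent of its wt mean. Wt libraries had 99.6% ± 2.22 (SD, n = 6) and Del libraries 49.0% ± 2.72 (SD, n = 4). Dup libraries reached 144.7% ± 3.16 (SD, n = 5), and DelDup libraries returned to 94.8% ± 1.96 (SD, n = 4). No 2 genotypes overlapped: the 4 DelDup values, 91.9%, 96.1%, 95.96% and 95.1%, lay just below the lowest wt value of 96.4%. The deleted chromosome took away 50.3 percentage points (SE 1.19) and the duplicated one added 45.4 points (SE 1.19), where 1 copy of 2 is 50. The sum of both effects predicted 94.1% in DelDup, their product 71.2%, and 94.8% was measured, a departure from the sum of 0.64 points (SE 2.37).

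**Figure D1:**
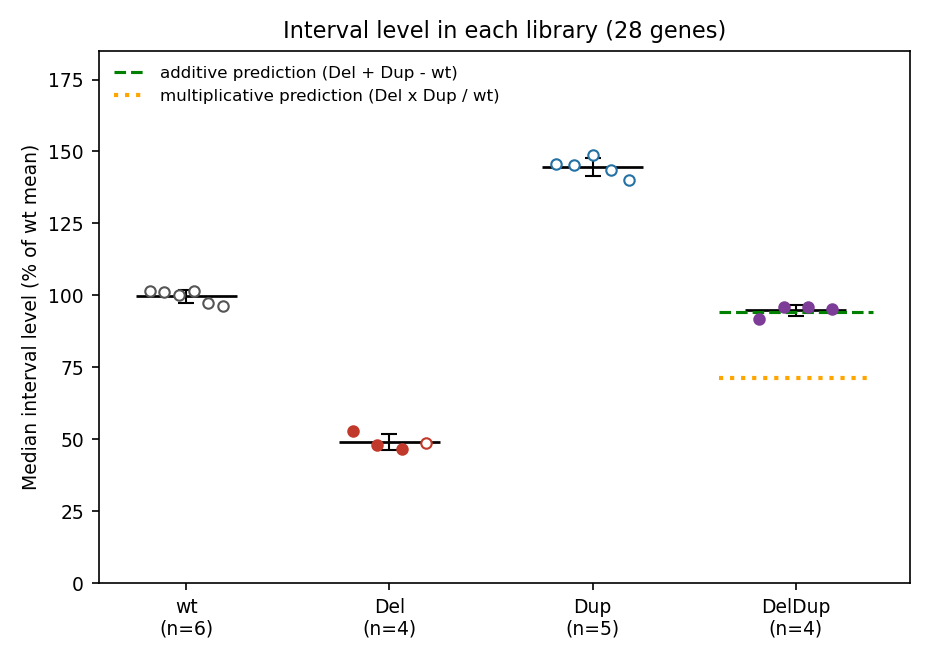
Interval level of each of the 19 libraries (median over 28 genes, percent of the wt mean), with the mean and SD of each genotype. Filled points are libraries with over 55% multi-mapped alignments. The 4 DelDup libraries sit at the additive prediction of 94.1% and above the multiplicative one of 71.2%.

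Gene by gene, the deleted chromosome lowered 26 of 28 interval genes and raised none (edgeR quasi-likelihood test, adjusted p under 0.05), where 1.14% of all 15440 genes tested were called lower and 1.92% were called in either direction. The duplicated chromosome raised 24 of 28 and lowered none, where 0.246% of all genes were called higher and 0.278% in either direction. Copy number was the basis of the grouping, so these shares check the labels. The median log2 change was −0.81 for the deleted and 0.73 for the duplicated chromosome, against 0.00 over all genes tested for each. Leaving out any 1 library gave medians of −0.83 to −0.79 and of 0.72 to 0.75. With a term for a multi-mapped share over 55%, which leans on Del replicate 4, the deletion was called for 17 interval genes, at a median of −0.80. The 2 genes not called for the deletion, AABR07005779.6 and AABR07005779.7, had wt means of 0.47 and 0.76 CPM. The genes not called for the duplication were AABR07005779.6, LOC308990, Qprt and Sult1a1. The duplication call of AABR07005779.7 was lost without DelDup replicate 2 or 4 or Del replicate 2 or 4 (edgeR adjusted p = 0.0502 to 0.0725).

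Among the kinases and phosphatases of the interval, Mapk3 (ENSRNOG00000053583) had 88.5 CPM in its lowest, 95.6 in its median and 98.3 in its highest wt library. It had 60.9, 46.3, 48.5 and 41.0 CPM in Del, 153.7, 147.1, 139.4, 128.6 and 135.2 in Dup, and 81.2, 98.4, 93.8 and 89.0 in DelDup. Del and Dup were clear of wt, and DelDup overlapped it. The log2 effect was −0.79 (SE 0.06, adjusted p = 1.2e-08) for the deleted and 0.73 (SE 0.06, adjusted p = 4.6e-08) for the duplicated chromosome. Ppp4c, the catalytic subunit of protein phosphatase 4, had log2 effects of −0.79 (SE 0.05) and 0.73 (SE 0.05), and Taok2 of −0.80 (SE 0.03) and 0.78 (SE 0.03), all called.

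Among genes of neuronal membranes and synapses, Sez6l2 fell to 44.4% of wt in Del and rose to 140.2% in Dup. Prrt2 stood at 44.9% and 131.6%, and Doc2a at 56.2% and 152.7%. Doc2a ranged from 7.52 to 12.9 CPM within wt. Its deletion effect of −0.55 (adjusted p = 0.0468) kept its call only without wt replicate 5, Dup replicate 4, DelDup replicate 3 or Del replicate 2, and lost it without any of the other 15 libraries (adjusted p up to 0.0898). Its duplication effect of 0.89 (adjusted p = 0.0023) kept its call in all 19 of these fits.

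Kctd13, the Cul3 adaptor, had 50.0% of wt in Del, 142.5% in Dup and 92.0% in DelDup, and Aldoa had 50.3%, 146.5% and 90.6%. Among genes of chromatin and DNA repair, Maz, a zinc finger transcription factor, was at 41.1% of wt in Del and 152.8% in Dup. Ino80e, a subunit of the INO80 remodeller, had 53.9% and 145.5%, and Slx1b, a structure-specific endonuclease subunit, had 48.7% and 155.3%. Of the genes known from white blood cells, Coro1a had 48.8% and 149.4% and Spn 40.8% and 157.3%. Over the 26 genes called for the deletion, Del means ran from 38.9% (Qprt) to 56.2% of wt (Doc2a).

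In 26 of 28 genes every Del library was below every wt library, and in 21 of 28 every Dup library was above every wt library. The estimated deletion effect on the count scale ran from −61.3% to −34.8% of wt, with a median of −50.4%, and its 95% interval held −50% in 25 of 28 genes. The exceptions were Maz at −60.6%, Mvp at −41.4% and Ypel3 at −41.5%. The duplication effect ran from −4.76% to 97.7%, with a median of 46.5%, and its interval held 50% in 19 of 28 genes. Slx1b lay above 50%, at 58.7%, and the other 8 lay below: Aldoa, Cdipt, Kctd13, LOC308990, Prrt2, Qprt, Sez6l2 and Sult1a1. The absolute duplication effect was the smaller of the 2 in 18 of 28 genes.

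**Figure D2:**
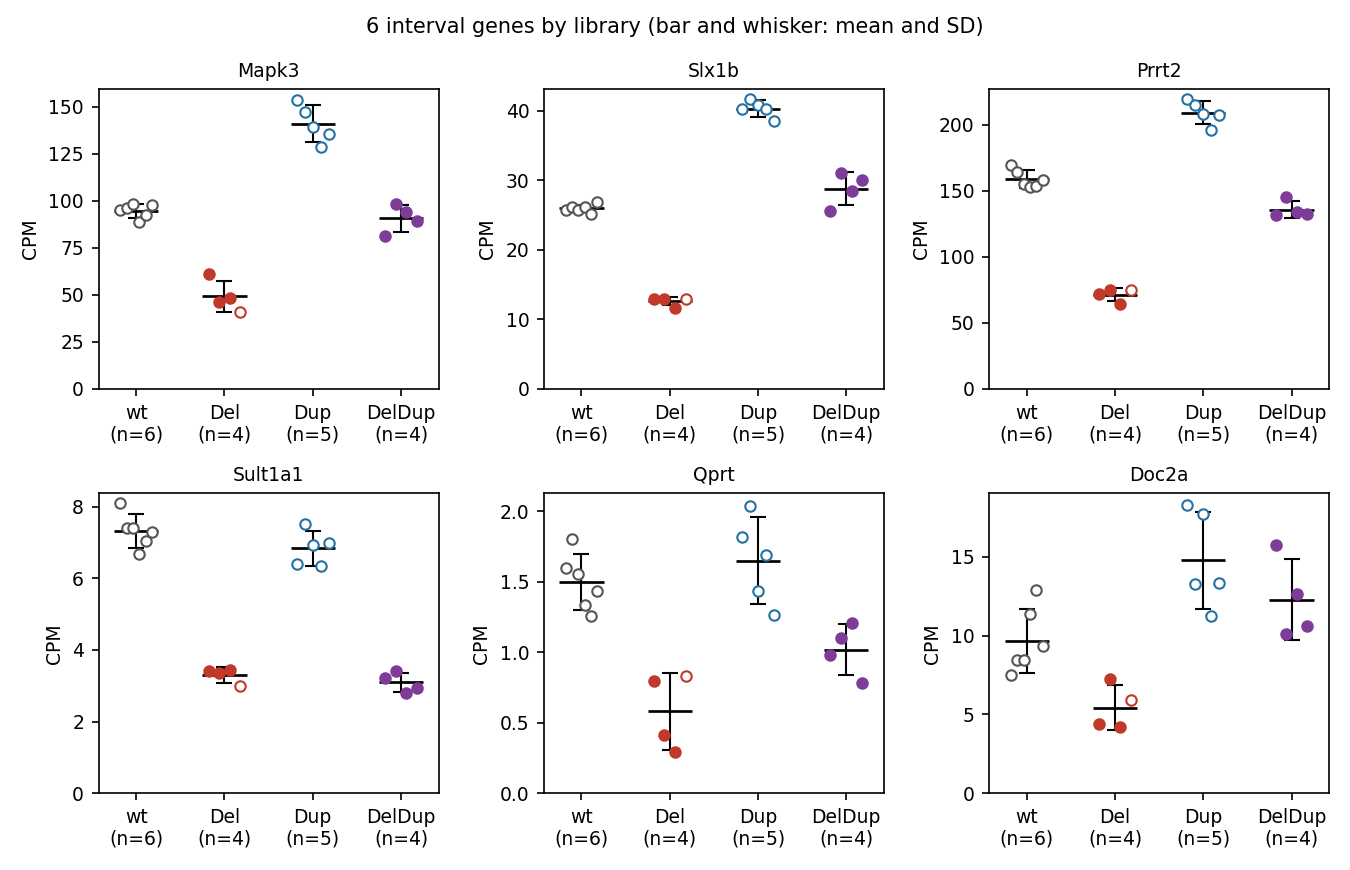
CPM of 6 interval genes in each library, with the mean and SD of each genotype (filled: over 55% multi-mapped alignments). Mapk3, Slx1b and Prrt2 have Del below and Dup above all wt libraries, whereas wt and Dup overlap in Sult1a1, Qprt and Doc2a.

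On the log scale the alleles did not add. With 1, 2, 2 and 3 copies in proportion, the duplication should raise RNA more beside the deleted chromosome (log2 1) than beside a normal one (0.58), a departure of 0.42. The median departure measured over the 28 genes was 0.42, and all 28 values were positive, against a median of 0.00 over all genes tested. The median duplication effect was 0.53 beside a normal chromosome and 0.92 beside the deleted one. The median deletion effect was −1.01 beside a normal chromosome and −0.62 beside the duplicated one, where −1 and −0.58 follow from the copies. In 20 of the 28 genes the departure had an unadjusted p under 0.05, and 3 genes passed adjustment over all genes, where 0.0259% of all genes were called.

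Those 3 were Slx1b, Prrt2 and Taok2. Slx1b (ENSRNOG00000019369) had 25.2 CPM in its lowest, 26.0 in its median and 26.9 in its highest wt library. Its levels were 12.97, 12.96, 11.71 and 12.95 CPM in Del, 40.3, 41.7, 40.9, 40.3 and 38.5 in Dup, and 25.6, 31.1, 28.4 and 30.0 in DelDup. No library of Del or Dup overlapped another genotype, and 3 of the 4 DelDup libraries lay above wt. The duplication effect of Slx1b was 0.63 beside a normal chromosome and 1.18 beside the deleted one, a departure of 0.55 (SE 0.07, adjusted p = 0.00155).

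Prrt2 (ENSRNOG00000029366) had 152.6, 156.9 and 169.5 CPM as lowest, median and highest of wt. It had 71.5, 75.1, 64.6 and 74.5 CPM in Del, 219.3, 215.3, 208.3, 196.0 and 207.2 in Dup, and 131.4, 145.4, 133.6 and 132.6 in DelDup. Here all 4 DelDup libraries lay below all wt libraries. Its departure was 0.53 (SE 0.07, adjusted p = 0.00155).

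Taok2 (ENSRNOG00000019964) had 212.7, 222.4 and 224.4 CPM as lowest, median and highest of wt. It had 116.8, 113.1, 99.7 and 111.8 CPM in Del, 327.7, 322.2, 337.4, 337.7 and 327.9 in Dup, and 213.3, 218.9, 213.3 and 224.3 in DelDup, whose range fell within that of wt. Its departure was 0.40 (SE 0.06, adjusted p = 0.00331). All 3 calls held in each of the 19 fits without 1 library. Without Del replicate 1 the calls in the interval rose to 6, and those over all genes from 4 to 8. With wt replicate 5 counted as Dup, edgeR called 0 genes, with 914 at an unadjusted p under 0.05. DESeq2 called 56 genes, 9 of them in the interval.

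In counts the departures were small. For each gene, the mean of DelDup minus Del minus Dup plus wt was tested with limma on CPM and is given in percent of the wt mean. The median over the 28 genes was 1.77%, with 15 of 28 above 0, against 0.23% over all genes tested. The 95% interval held 0 in 27 of 28 genes, and the absolute departure was under 10% in 19. None was called, where 0% of all 15440 genes were called. In limma, 1505 genes had an unadjusted p under 0.05. The delta method applied to the edgeR means likewise called 0, with 1456 unadjusted, and limma with array weights 0, with 1645. Without Dup replicate 5 limma called 1 gene and without DelDup replicate 5 likewise 1, neither in the interval. With wt replicate 5 counted as Dup the interval's median departure was 9.50%.

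Prrt2 was the gene whose interval missed 0, at 8.85% (0.06 to 17.6, limma unadjusted p = 0.0486, adjusted p = 0.508). Taok2 had −1.06% (−8.15 to 6.04), Aldoa −6.24% (−15.2 to 2.76), Mapk3 −4.84% (−18.9 to 9.19) and Kctd13 −0.48% (−13.5 to 12.6). The intervals of low genes were wider, as in AABR07005779.7, where it ran from −104.6% to 86.7%. In Doc2a it ran from −26.8% to 62.9%, and in Kif22, a kinesin of mitosis, from −50.7% to 20.7%.

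**Figure D3:**
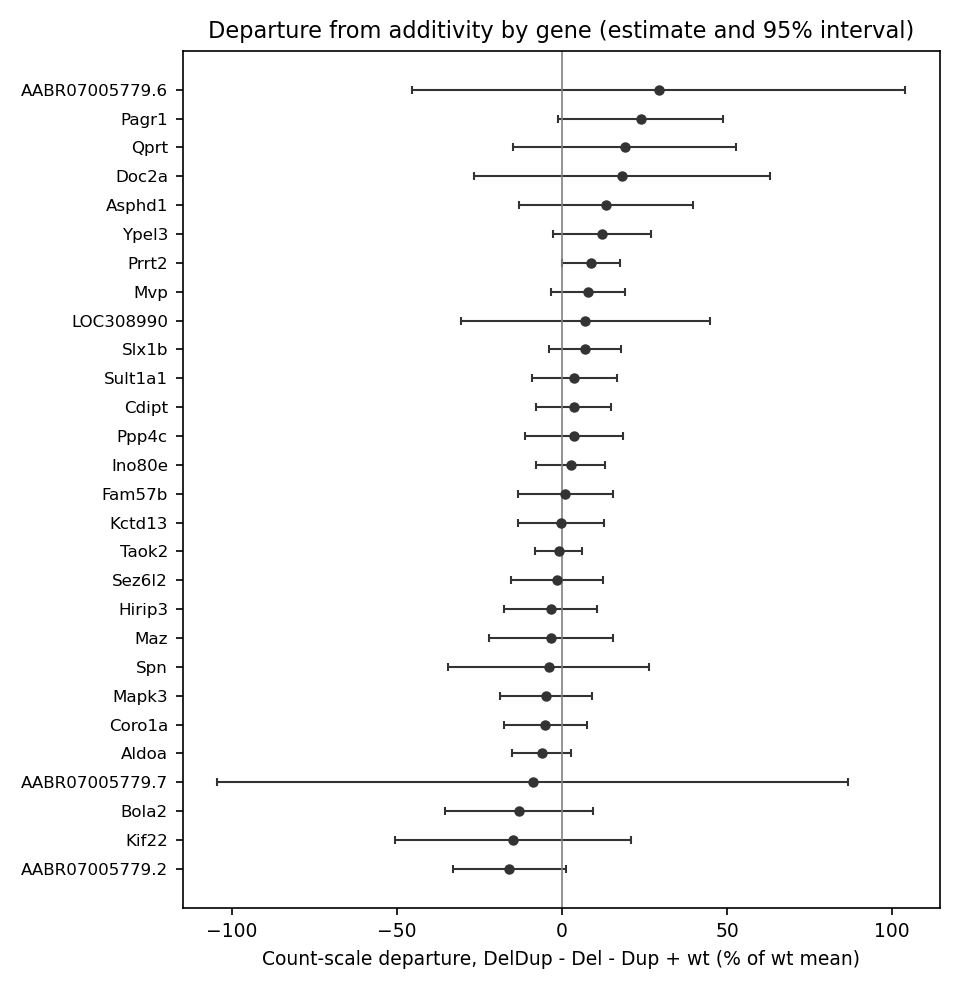
Departure from additivity of each of the 28 interval genes on the count scale (percent of the wt mean, estimate and 95% interval from limma). The intervals hold 0 except for Prrt2, which lies at 8.85%.

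Measured DelDup means were closer to the sum than to the product of the single effects in 26 of 28 genes, the exceptions being Sult1a1 and AABR07005779.2. The median distance from the additive prediction was 6.57% of the wt level, and from the multiplicative prediction 23.9%. The comparison uses the means alone, without a test.

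**Figure D4:**
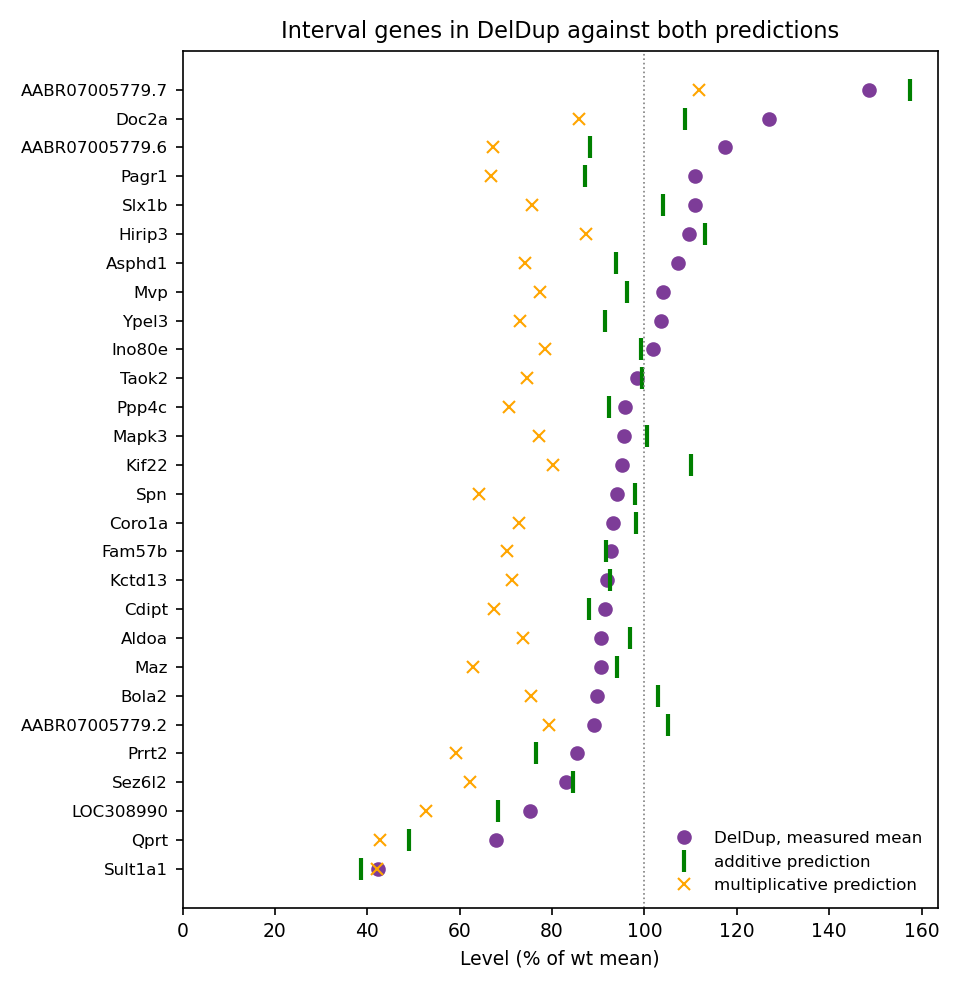
Mean of DelDup for each interval gene (percent of the wt mean) beside the additive and the multiplicative prediction from the other 3 genotypes. In 26 of 28 genes the measured mean is nearer to the additive mark, and Sult1a1 is lowest at 42.2%.

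The log-scale departure was also tested against the value that proportional dosage gives, with copy number entered as an offset. This bears on the departure alone and not on the size of either effect. It was called for 0 interval genes, and for 0% of all genes (edgeR, 1483 of all genes and 1 interval gene at an unadjusted p under 0.05). DESeq2 was not run for this test. The interval gene was Sult1a1, at −0.41 (adjusted p = 0.358).

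Sult1a1 (ENSRNOG00000019342), a sulfotransferase of phenolic compounds, is the gene at the edge of the interval. It had 6.68, 7.34 and 8.11 CPM as lowest, median and highest of wt, and 6.395, 7.51, 6.93, 6.35 and 6.999 CPM in Dup. It had 3.425, 3.36, 3.45 and 2.98 CPM in Del and 3.22, 3.40, 2.80 and 2.94 in DelDup. The libraries thus fell into those with and those without the deleted chromosome, and within each set the duplicated one made ranges that overlapped. The log2 effect of the deletion was −1.13 (SE 0.06, adjusted p = 6.3e-11), and that of the duplication −0.10 (SE 0.06, adjusted p = 0.794). On the count scale the duplication effect was −4.76% of wt, with a 95% interval of −11.2% to 1.72%, which does not reach 50%. The departure from additivity was 3.70% (−9.25 to 16.6). A duplication effect on Sult1a1 small enough to lie within −11.2% to 1.72% was not detectable at this depth.

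Qprt (ENSRNOG00000016980), an enzyme of NAD synthesis from quinolinate, and LOC308990 responded weakly to the duplication too. Qprt had a duplication effect of 19.6% of wt (2.81 to 36.5) and LOC308990 of 30.0% (11.2 to 48.9), beside deletion effects of −51.7% and −54.8%. Neither duplication effect was called by edgeR (adjusted p = 0.478 and 0.204), and both genes stayed at or under 2.04 CPM in every library. In Qprt the Dup values of 1.82, 2.04, 1.43, 1.69 and 1.27 CPM overlapped the wt range of 1.26 to 1.81 CPM.

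The remaining 4 genes of the interval had too few reads to be tested. Zg16 had 0 to 2 reads per library, Gdpd3 0 to 6, LOC102552638 0 to 7, and Tbx6, a transcription factor of the mesoderm, 3 to 13.

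With both altered chromosomes most interval genes were near wt. In DelDup against wt, 1 of 28 interval genes was called, where 0.0842% of all genes were called. It was Sult1a1, at a log2 difference of −1.23 (SE 0.09, adjusted p = 7.6e-08). The median over the interval was −0.07, against 0.00 over all genes tested, with 10 of 28 genes above 0.

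Outside the interval the deleted chromosome was called to change 271 genes, with 121 higher and 150 lower and an absolute log2 effect of 0.24 at the median. The count was far from fixed. It was 297 with the interval, and leaving out 1 library gave 79 to 1280. It moved by over 1.5 times without wt replicate 1 (153), 2 (158), 3 (129), 5 (453) or 6 (172), without Dup replicate 1 (157), 2 (181) or 4 (133), without DelDup replicate 2 (79), 3 (1280) or 4 (125), and without Del replicate 1 (595), 2 (92), 3 (485) or 4 (90). Of the 271 genes, 46 were called in all 19 fits. With the term for a high multi-mapped share 6 of the 271 kept their call, and with the level of Ttr as a covariate 25. The 2 kept under both terms were AABR07070225.1 and Cd9. The Ttr covariate, a marker of choroid plexus, was chosen after seeing the data.

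Cd9, a membrane tetraspanin abundant in oligodendrocytes, had 39.8, 43.9 and 46.7 CPM as lowest, median and highest of wt and 45.1 to 49.6 CPM in Dup. It had 55.6, 54.5, 56.5 and 63.5 CPM in Del and 57.5, 48.8, 51.8 and 54.1 in DelDup. Del lay above all wt and Dup libraries, and DelDup was above wt but overlapped Dup. The log2 effect of the deletion was 0.28 (SE 0.04, adjusted p = 0.00018). All 15 oligodendrocyte markers were tested for the deletion; 0 were called by edgeR, 8 had an unadjusted p under 0.05, where 21.7% of all genes did, and their median effect was 0.16, with 14 of 15 positive. Their summed level was 5602 to 7205 CPM for wt and 6548 to 9798 for Del, beside 6556 to 7531 for Dup and 6465 to 7868 for DelDup, and their part in the Cd9 result was not tested. In bulk tissue more cells of a type and more RNA per cell cannot be told apart.

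AABR07070225.1, a gene with only a clone-based name, was called for both chromosomes, in opposite directions. It had 1.15, 1.36 and 1.75 CPM as lowest, median and highest of wt, and 1.90, 1.59, 1.85, 2.08 and 2.10 in Dup. It had 0.38, 0.66, 0.53 and 0.35 CPM in Del and 1.07, 0.84, 0.90 and 0.98 in DelDup. Libraries with the deletion all lay below those without it, and Dup overlapped wt. The deletion effect was −1.18 (SE 0.13, adjusted p = 4.1e-06) and the duplication effect 0.68 (SE 0.12, adjusted p = 0.0102), both kept in every alternative tried, and it had no match in the RefSeq annotation used for chromosomes.

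Other leading calls of the deletion did not hold with the share term. AABR07015081.2 had 394 to 2558 CPM in wt, 1048 to 3452 in Dup and 7614 to 15480 in DelDup. In Del it had 18870, 22690 and 10120 CPM in replicates 1 to 3, whose multi-mapped share was high, and 1685 CPM in replicate 4, whose share was 41.6%. Its effect of 2.91 (adjusted p = 0.0027) became −0.26 (adjusted p = 0.924) with the share term. AABR07052744.1 went from 2.27 (adjusted p = 0.0021) to −0.34 (adjusted p = 0.924) and LOC100364769 from 1.65 (adjusted p = 0.00032) to 0.61 (adjusted p = 0.599). Both genes passed the filter on low counts through libraries with the deletion, with 0 to 4 and 2 to 12 reads in each wt or Dup library, so their calls are no support for a difference. The neuronal regulator of G protein signalling Rgs17 went from 0.24 (adjusted p = 0.0027) to 0.02 (adjusted p = 0.956). Ppip5k2, an inositol pyrophosphate kinase, had 0.35 (adjusted p = 0.0013) and Ramp3, a receptor-modifying protein, 0.80 (adjusted p = 0.0027), and both kept their size but lost their call with that term (0.50 and 0.88).

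Close to the interval, 17 flanking genes were tested, and 2 were lower with the deletion, where 1.14% of all genes were. Eif3c, a subunit of a translation initiation factor, had an effect of −0.22 (SE 0.03, adjusted p = 0.0002). Its levels were 215.2 to 232.4 CPM in wt, 225.2 to 245.7 in Dup, 204.4, 199.6, 204.7 and 221.1 in Del and 175.9, 198.5, 188.4 and 187.6 in DelDup. DelDup was clear of every other genotype and Del replicate 4 fell within wt. The effect was −0.11 (adjusted p = 0.528) with the share term. Xpo6, a nuclear export receptor, had −0.14 (adjusted p = 0.032), a call lost without wt replicate 1, 2 or 3, Dup replicate 4, DelDup replicate 2 or 4, or Del replicate 2 or 4 (adjusted p = 0.0512 to 0.0744). The median over the 17 genes was −0.01, against 0.00 over all genes.

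The duplicated chromosome was called to change 19 genes outside the interval, with 14 higher and 5 lower and an absolute log2 effect of 0.45 at the median. The total of 43 stayed between 31 and 48 when 1 library was left out. Of these genes, 13 kept their call with the share term, 7 with Ttr as a covariate and 5 in all 19 fits without 1 library. With the replicate block and the DESeq2 test required as well, 3 kept their call under all of them: AABR07070225.1, Sgf29 and Cyb561a3. Of the 15 that matched the RefSeq GRCr8 annotation, 7 lay on chromosome 1, where 12.1% of all genes matched lie, and 36 of the 241 matched calls of the deletion did (14.9%). The 7 were Cyb561a3, Sec23ip, Sgf29, Slc5a2, Tgfb1i1, Ucp3 and Vegfb. In gene order along that chromosome, 4 of the 100 tested genes within 50 on each side of the interval were called for the duplication and 5 for the deletion, where 0.278% and 1.92% of all genes were. Within 25 genes on each side it was 1 and 3 of 50, and within 100 genes 4 and 7 of 200.

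Sgf29, a reader of methylated histone H3 and the tested gene next to the interval, was lower with the duplication. It had 8.15, 9.20 and 10.0 CPM as lowest, median and highest of wt and 8.82, 7.91, 9.26 and 9.13 CPM in Del. It had 6.81, 7.20, 6.09, 6.58 and 7.16 CPM in Dup and 7.29, 6.28, 6.50 and 8.30 in DelDup. All Dup libraries were below all wt libraries, and DelDup replicate 5 fell within the ranges of wt and Del. The effect was −0.37 (SE 0.06, adjusted p = 0.0034), and −0.31 (adjusted p = 0.12) when wt replicate 5 entered as Dup.

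Cyb561a3, a lysosomal ferric reductase further along the chromosome, was higher. It had 4.01, 4.31 and 5.28 CPM as lowest, median and highest of wt, 5.22, 4.72, 4.45 and 5.05 in Del and 7.39, 7.02, 9.20, 8.04 and 7.51 in Dup. In DelDup, replicates 4 and 5 had 9.11 and 8.30 CPM, in the Dup range, and replicates 2 and 3 had 4.95 and 5.13, in the wt range. The effect was 0.65 (SE 0.10, adjusted p = 0.0017).

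Among the other duplication calls, Vegfb, a growth factor of the VEGF family, had an effect of −0.39 (adjusted p = 0.0091), with 16.6 to 18.8 CPM in wt and 12.5 to 16.0 in Dup. With Ttr as a covariate it was −0.37 (adjusted p = 0.0544). Slc5a2, a kidney glucose transporter, had −0.75 (adjusted p = 0.0206) at under 1 CPM, a call lost without DelDup replicate 3 or 4 or Del replicate 1, 2 or 3 (adjusted p = 0.0515 to 0.0717). The Slc5a2 effect was −1.29 (adjusted p = 0.001) beside a normal chromosome and −0.20 (adjusted p = 0.904) beside the deleted one, a log-scale departure of 1.09 (adjusted p = 0.243). Gpd1, the cytosolic glycerol-3-phosphate dehydrogenase of glia, had 0.25 (adjusted p = 0.0219), a call lost without Dup replicate 1, DelDup replicate 4 or 5, or Del replicate 1 or 4 (adjusted p = 0.0519 to 0.0614). Rcor2l1 had 1 read in all 6 wt libraries together, 1 to 15 reads in each Dup library and 5 to 9 in each DelDup library. It passed the filter on low counts only through libraries with the duplication, so its call is no support for a difference, and it was tested in 18 of 26 alternatives. In Del it had 3 reads in replicate 2, 7 in replicate 4 and 0 in the others.

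Calml4, a calmodulin-like gene of the choroid plexus list, was higher with the duplication (0.56, adjusted p = 0.0202), with 5.10 to 6.72 CPM in wt and 7.35 to 10.6 in Dup. It was the 1 call among the 20 choroid plexus genes tested, where 0.278% of all genes were called. Their summed level was 141 to 208 CPM for wt, 161 to 1889 for Del, 168 to 714 for Dup and 225 to 1782 for DelDup, and Ttr, the leading one, had group means of 10.7, 304, 91.0 and 429 CPM in that order. With Ttr as a covariate the Calml4 effect was 0.43 (adjusted p = 0.0553), and without Del replicate 4 its adjusted p was 0.051. One of the α-globin genes, Hba-a2 (ENSRNOG00000047321), was higher by 0.45 (adjusted p = 0.0229), with 30.4 to 39.5 CPM in wt, 44.6 to 62.8 in Dup, 25.5 to 40.3 in Del and 32.5 to 44.3 in DelDup. Its call was lost without Dup replicate 1, DelDup replicate 2 or 3, or Del replicate 1, 2 or 3 (adjusted p = 0.0519 to 0.0745). It was the 1 call among the 7 blood genes tested, beside the same 0.278%. Their summed level was 119 to 163 CPM in wt, 183 to 247 in Dup, 106 to 166 in Del and 134 to 166 in DelDup. Another gene of this name is annotated, so reads may be split between both. It had a duplication effect of 0.36 (adjusted p = 0.158) and was lower with the deletion, at −0.36 (adjusted p = 0.0445), where the first had −0.31 (adjusted p = 0.0654). Of the 7 blood genes, 5 had an unadjusted p under 0.05 for the duplication and 6 for the deletion, where 7.60% and 21.7% of all genes had. The part of blood RNA in the calls of the duplication was not tested.

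**Figure D5:**
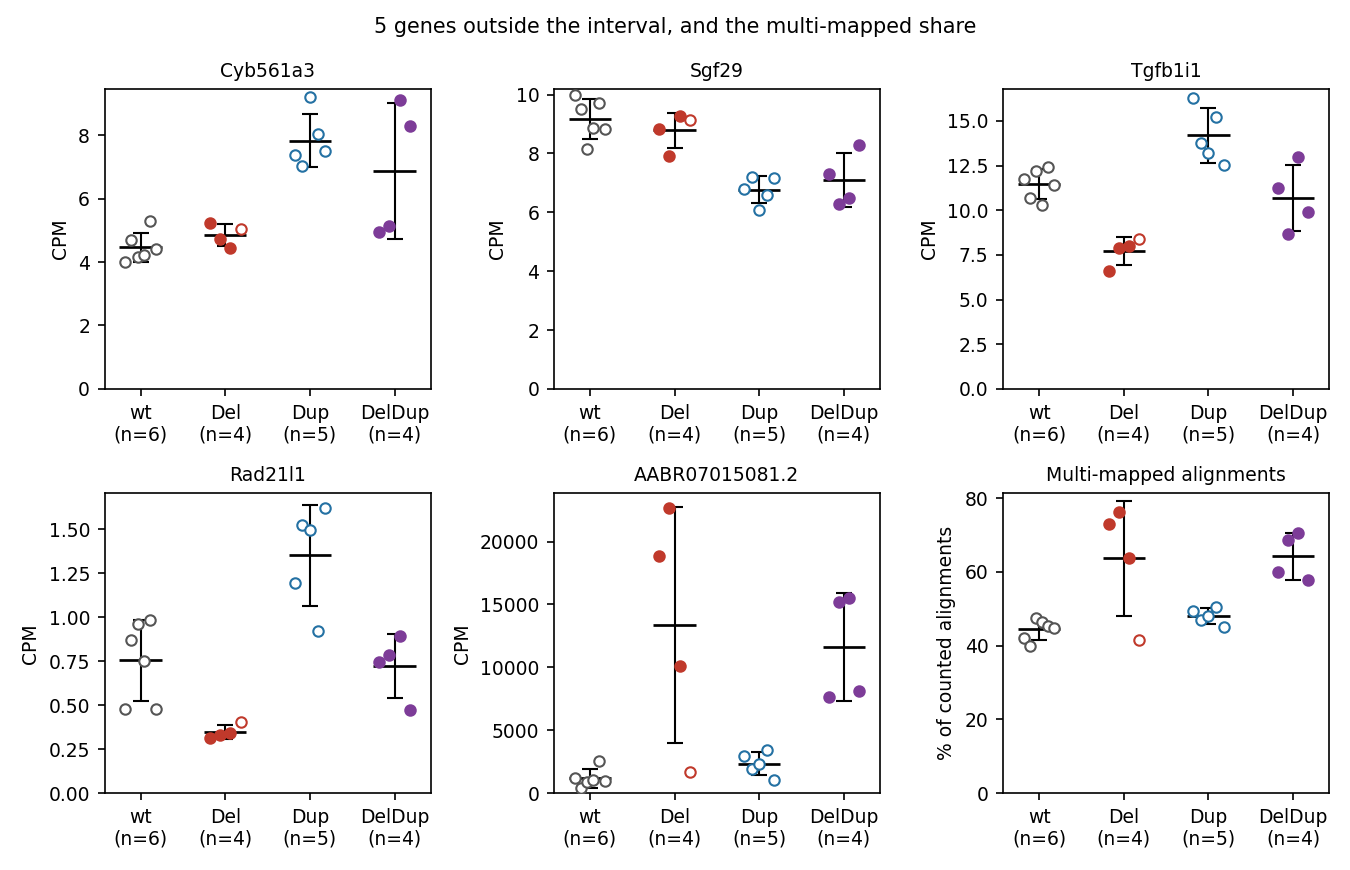
CPM of 5 genes outside the interval in each library and, in the last panel, the share of multi-mapped alignments, with the mean and SD of each genotype (filled: share over 55%). AABR07015081.2 is high in the libraries with a high share, and the DelDup values of Cyb561a3 fall in a high and a low pair.

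Genes called for both chromosomes outside the interval numbered 4, and in each the 2 effects were opposite in sign. Besides AABR07070225.1 they were Tgfb1i1, Rad21l1 and Ucp3. Tgfb1i1, a focal adhesion adaptor also named Hic-5, had 10.3 to 12.4 CPM in wt, 6.61, 7.91, 7.998 and 8.38 in Del, 16.3, 13.8, 13.2, 15.2 and 12.5 in Dup and 11.3, 8.68, 13.0 and 9.91 in DelDup. Del was below and Dup above every wt library, and DelDup spanned wt. The deletion effect was −0.48 (SE 0.07, adjusted p = 0.00065) and the duplication effect 0.39 (SE 0.07, adjusted p = 0.0109), and its count-scale departure was 1.95% of wt (limma unadjusted p = 0.846). With the share term its deletion effect was −0.35 (adjusted p = 0.421).

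Rad21l1, a meiotic cohesin subunit annotated on chromosome 3, had 0.31 to 0.40 CPM in Del, 0.48 to 0.98 in wt, 0.47 to 0.90 in DelDup and 0.92 to 1.62 in Dup, with effects of −0.91 (adjusted p = 0.0089) and 0.85 (adjusted p = 0.0229). Ucp3, a mitochondrial carrier, went the other way, at 1.16 (adjusted p = 0.0408) for the deletion and −1.43 (adjusted p = 0.0229) for the duplication, with 0 to 4 reads in each Dup library. Its levels overlapped between wt (0.24 to 1.17 CPM) and Del (0.51 to 0.98 CPM). The deletion effect on Ucp3 was 0.50 (adjusted p = 0.484) beside a normal chromosome and 1.83 (adjusted p = 0.104) beside the duplicated one. Its deletion call was lost without wt replicate 2, 3 or 6, Dup replicate 3, 4 or 5, DelDup replicate 2 or 4, or Del replicate 2 or 4 (adjusted p up to 0.1). Its duplication call was lost without Dup replicate 4 or 5, DelDup replicate 4 or 5, or Del replicate 1 or 2 (adjusted p up to 0.0715). The duplication call of Rad21l1 was lost without Dup replicate 2 or 5, DelDup replicate 2, 3 or 4, or Del replicate 1, 2 or 3 (adjusted p up to 0.0953). With the share term neither deletion call held (Rad21l1 −0.69, adjusted p = 0.536, and Ucp3 0.58, adjusted p = 0.623).

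No gene outside the interval passed the test of departure in counts, and 1 passed in logarithms, AABR07043287.1, at −3.82 (adjusted p = 0.0416). It had 3 to 10 reads in each wt library, 12 to 34 for Del, 5 to 48 for Dup and 1 to 12 for DelDup, and 4 of the 5 Dup libraries lay above all wt libraries. It passed the filter on low counts mainly through Del and Dup libraries, so its call is no support for a difference. Its call was lost without any library other than wt replicate 3, Dup replicate 5, DelDup replicate 4 and Del replicate 1 (adjusted p up to 0.14). The 5 genes with the smallest p for the count-scale departure did not pass, and their values follow as measured. Abca7, a lipid transporter, had 34.7 to 37.4 CPM for wt, 31.2 to 33.7 for Del, 32.2 to 37.0 for Dup and 37.6 to 42.3 for DelDup, a departure of 23.9% of wt (limma unadjusted p = 3.99e-05). Gramd4 had 39.4 to 44.0, 37.0 to 41.1, 35.9 to 39.3 and 40.6 to 46.9 CPM in that order, and 23.6% (limma unadjusted p = 4.64e-05). Lhfpl1 was under 0.64 CPM throughout, at 90.8%, and RF00100 (ENSRNOG00000058108) and AABR07043287.1 had at most 48 reads in a library. The limma adjusted p was 0.205 for Abca7, as for the other 4.

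Each chromosome was also read in each background alone. The deletion was called for 119 genes beside a normal chromosome (0.771% of all genes) and for 46 beside the duplicated one (0.298%), with 25 and 20 of the 28 interval genes among them. The duplication was called for 42 genes beside a normal chromosome (0.272%) and for 25 beside the deleted one (0.162%), with 21 and 23 interval genes. The difference between backgrounds is the departure tested above, and the counts themselves were not compared.

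The calls of 1 background were then looked up in the other, which uses other libraries. All 21 interval genes called for the duplication beside a normal chromosome were higher beside the deleted one too, and all 21 were called there. Of the 21 genes called outside the interval, 15 had the same direction, 4 of them with an unadjusted p under 0.05 in edgeR, and 0 were called. Their median absolute effect was 0.80 where they were called and 0.15, in the called direction, in the other background. For the deletion, 25 of 25 interval genes and 72 of 94 others kept their direction, 23 of the 94 with an unadjusted p under 0.05 and 1 called. The reverse look-up of the deletion calls beside the duplicated chromosome found the same direction for 13 of 26. In both deletion comparisons all libraries with the deletion but Del replicate 4 had a high multi-mapped share.

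Lists of genes tied to the interval were read against all genes tested, of which 21.7% had an unadjusted p under 0.05 for the deletion and 7.60% for the duplication, and 1.92% and 0.278% were called. Of 38 ERK pathway genes tested, edgeR called 0 higher with the deletion and 0 in either direction with the duplication, with 13 and 2 of the 38 at an unadjusted p under 0.05. Ksr1, a scaffold of the pathway, was lower with the deletion, at −0.36 (SE 0.09, adjusted p = 0.0424). The median over the list was −0.04 for the deletion and −0.02 for the duplication. Of 32 genes of the Cul3 and RhoA pathway, edgeR called 0 for either chromosome, with 10 and 3 at an unadjusted p under 0.05. Cul3 itself had 0.03 (SE 0.03) for the deletion and −0.03 (SE 0.03) for the duplication. Among 49 synaptic genes tested, 25 had an unadjusted p under 0.05 for the deletion and 2 for the duplication. The GABA-A receptor subunit Gabrb2 was higher with the deletion (0.22, adjusted p = 0.0154). Camk2a, the kinase of synaptic plasticity, was lower (−0.22, adjusted p = 0.0468). None of the calls of Ksr1, Gabrb2 and Camk2a was kept with the share term.

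Among the cell type lists, 9 hippocampal neuron markers were tested and all had negative deletion effects, with a median of −0.19 and 1 called, Camk2a, which is also on the synaptic list. The summed level of that list was 4878 to 5710 CPM for wt, 4135 to 4758 for Del, 4422 to 5452 for Dup and 3843 to 4991 for DelDup, so the tissue's own markers were present in every library. Of the 20 choroid plexus genes, edgeR called 0 for the deletion, with 18 at an unadjusted p under 0.05, where 21.7% of all genes were, and a median effect of 1.93, against 0.00 over all genes. The summed level of that list was 1889 CPM in Del replicate 3, 1782 in DelDup replicate 2 and 968 in DelDup replicate 4, while Del replicates 1 and 2, at 161 and 182 CPM, lay within the wt range. The motile cilia, immediate early gene, astrocyte, microglia and vascular lists had 0 calls for either chromosome or departure in edgeR, with at most 10 genes of a list at an unadjusted p under 0.05. Those 10 were of the 34 motile cilia genes tested, for the log-scale departure, where 9.73% of all genes had such a p.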

How the data were processed

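RNA from the hippocampus of 19 rats was sequenced by the authors as single-end reads, aligned with HISAT2 to build rn6 and counted per Ensembl gene with HTSeq. The labels name polyA RNA as the molecule, while their protocol describes a stranded total RNA kit with rRNA depletion. The deposited values are raw counts per gene, 1 file per library. Its 5 summary lines, among them 40.1% to 76.3% multi-mapped alignments, were left out of library sizes.

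Of 32623 genes, 24345 had a read and 15440 passed edgeR's filterByExpr. Group means of wt, Del, Dup and DelDup were fitted to all 19 libraries with edgeR 4.0.16 (TMM, robust quasi-likelihood, 15 residual degrees of freedom), in R 4.3.3. Contrasts gave each chromosome's effect averaged over both backgrounds, its effect in each background and the log-scale departure. A second fit held log copy number as an offset for interval genes. The departure in counts was fitted with limma 3.58.1 (trend, robust) on TMM-scaled CPM. Adjusted p-values are Benjamini-Hochberg over all genes tested, with a threshold of 0.05, and come from edgeR's quasi-likelihood test unless limma is named. Intervals are 95%.

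Libraries were grouped by description. Named genes are all interval genes, the 10 smallest adjusted p outside it per effect (or, with none called, the 5 smallest p), called flanking genes, and genes called for both chromosomes. Genes, lists and tests were chosen with earlier results of these data known. Alternatives were DESeq2 1.42.0, other scaling and filtering, each library left out, wt replicate 5 as Dup, a term for a high multi-mapped share, a replicate block, array weights, and, added after seeing the data, Ttr as a covariate. The tests were checked on simulated counts. Chromosomes and gene order come from the RefSeq GRCr8 annotation, a build other than the rn6 of the alignment. It matched 13717 genes (88.8%) by symbol or synonym, and its coordinates are not printed here. Some results are not reported here.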

Additional observations from a re-analysis of the deposited data

Results flagged for a closer look

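In 9 of 228 groups of 4 to 6 libraries tested (3.95%), among the named genes, 1 library lay apart from the rest by Dixon's test at the 95% level, a rate near what chance gives. In the interval these were Slx1b in Del replicate 3 (11.71 CPM), Asphd1 in Del replicate 3 (7.367 CPM), Ypel3 in Dup replicate 3 (150.7 CPM), Taok2 in wt replicate 6 (212.7 CPM) and Prrt2 in DelDup replicate 3 (145.4 CPM). Outside it they were AABR07015081.2 in wt replicate 5 (2558 CPM), Rcor2l1 in wt replicate 3 (0.03704 CPM, 1 read), Slc5a2 in Del replicate 4 (0.3761 CPM) and Ucp3 in wt replicate 1 (1.17 CPM).

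By the edgeR test of the difference itself, the log2 effect of either chromosome was called to differ with the other's presence for 4 genes. The difference was 0.5504 log2 units for Slx1b, 0.3988 for Taok2, 0.5302 for Prrt2 and −3.816 for AABR07043287.1. Moving wt replicate 5 to the Dup group ended all 4 calls. The call of AABR07043287.1 was lost in 19 of 26 alternatives, 15 of them fits without 1 library. This gene passed the filter on low counts mainly through Del and Dup libraries, so its call is no support for a difference.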

How the results depend on the processing

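The interval medians kept their sign for both chromosomes in every alternative run for them, which leaves out Ttr as a covariate. The count of genes called for the deleted chromosome was 297 and went to 42 with the share term, 53 with Ttr as a covariate, 991 with DESeq2 and 79 to 1280 when 1 library was left out. For the duplicated chromosome 43 went to 74 with DESeq2 and to 31 to 48 without 1 library. The log-scale departure had 4 calls, 56 with DESeq2, 0 with wt replicate 5 counted as Dup, and 3 to 8 without 1 library, 8 being without Del replicate 1. The count-scale departure had 0 calls and 0 to 1 without 1 library. Its interval median of 1.77% went to 9.50% with wt replicate 5 counted as Dup and to −0.14% to 3.74% without 1 library. With the share term the deletion effect changed sign for AABR07015081.2 (−0.26) and AABR07052744.1 (−0.34), neither then called. The deletion effect of the interval gene AABR07005779.6, not called in the main fit, ran from −0.71 to 0.38 over the alternatives. The cause of these shifts was not tested. In 49 of 86 named results, no alternative ended a call or turned the sign of a called effect. The 86 include effects of interval genes that were not called, and a gained call was not counted as a change.

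Replicate numbers did not pair the libraries: over 24 same-numbered pairs the correlation of deviations from group means ran from −0.17 to 0.12, above 0.1 in 2. With the replicate block edgeR called 143 genes for the deleted chromosome, 27 for the duplicated one and 5 for the log-scale departure.

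Outside the interval, the separation of the deleted chromosome from a high multi-mapped share rests on Del replicate 4 alone. The genotype of wt replicate 5 is given differently by 2 label fields. For the lowest interval genes the count-scale intervals were wide, up to −104.6% to 86.7% of wt in AABR07005779.7, so departures there were not detectable at this depth.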
